A study of Homo sapiens with 14 samples.

Results

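The genes described here are 33 genes that make cholesterol and fatty acids or control their making, out of 24461 named genes in the expression tables. They were taken by name, as genes of synthesis driven by the sterol regulatory element binding proteins (SREBPs). The rule used no measured value, but the list was chosen with earlier results of these data known. They comprise 18 enzymes of the sterol pathway, 9 enzymes of fatty acid synthesis and 6 regulators or carriers of sterol. All 33 passed the filter on low values, which asked for 1 TPM (transcripts scaled for length and library size) in 3 or more of 6 libraries, in both comparisons, and the lowest mean of any of them in any group was 11.7 TPM, so none entered a test through 1 group alone.

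RNA was sequenced from U251MG, an established human glioblastoma cell line with a wild-type genotype label in every sample, grown in medium with 10% fetal bovine serum. The 4 groups held 3 libraries each: control cells, radioresistant cells made by daily X-ray fractions of 2 Gy over 30 fractions to a total of 60 Gy, and radioresistant cells carrying either the hairpin shNC or the hairpin shIFI16. Open chromatin was profiled by ATAC-seq in 1 control and 1 radioresistant library. A single radioresistant line and a single targeting hairpin are named in the labels, which do not say whether replicates were separate cultures, so p-values measure only the spread between these libraries. The series was built to ask what IFI16, a nuclear DNA sensor, does in radioresistance.

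Cells build cholesterol from acetyl-CoA through the mevalonate pathway, squalene and lanosterol, and build fatty acids from acetyl-CoA through malonyl-CoA, followed by elongation and desaturation. SREBP precursors, encoded by SREBF1 and SREBF2, sit in the endoplasmic reticulum with the escort protein SCAP. When sterols are scarce, SCAP carries them to the Golgi, where they are cleaved and released to the nucleus, and when sterols are plentiful the INSIG proteins hold SCAP back. SREBP2 is known mainly for driving the cholesterol genes, and SREBP1c, a product of SREBF1, for driving fatty acid genes. Serum supplies lipoprotein cholesterol, so cultured cells make part of their sterol and take up the rest.

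The upstream sequences of 8 of the genes are shown first, since the results below return to them: SCD, FADS2, ELOVL6 and INSIG1, which had large differences between control and radioresistant cells, and FDPS, HSD17B7, ACSS2 and SREBF2, which with FADS2 were the members with a match to TCACNCNAC, a spelling of the sterol regulatory element, in the window. Each runs from 250 bases before to 50 bases after a start site listed by RefSeq on GRCh38.p14, 5′ to 3′ on the strand of the gene. Capitals mark TCACNCNAC and CCAAT, the box bound by NF-Y, on either strand, so that CCAAT on the other strand reads ATTGG. The windows are chr10:100346983-100347282 for SCD, chr11:61815953-61816252 for the first of 2 FADS2 starts, chr7:155297628-155297927 for INSIG1, chr1:155308616-155308915 for FDPS, chr1:162790452-162790751 for HSD17B7, chr20:34876362-34876661 for the second of 2 ACSS2 starts and chr22:41832855-41833154 for SREBF2, all on the plus strand, and chr4:110198566-110198865 for ELOVL6 on the minus strand.
SCD: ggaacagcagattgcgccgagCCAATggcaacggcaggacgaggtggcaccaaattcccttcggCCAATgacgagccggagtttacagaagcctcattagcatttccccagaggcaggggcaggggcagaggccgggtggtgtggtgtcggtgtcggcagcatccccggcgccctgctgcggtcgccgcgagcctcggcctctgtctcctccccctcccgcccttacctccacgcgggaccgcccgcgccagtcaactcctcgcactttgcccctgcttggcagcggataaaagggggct
FADS2: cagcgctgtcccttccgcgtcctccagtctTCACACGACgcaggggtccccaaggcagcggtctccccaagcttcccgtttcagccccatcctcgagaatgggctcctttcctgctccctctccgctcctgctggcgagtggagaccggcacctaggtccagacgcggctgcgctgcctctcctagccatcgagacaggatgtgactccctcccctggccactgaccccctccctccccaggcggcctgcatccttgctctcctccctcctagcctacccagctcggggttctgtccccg
ELOVL6: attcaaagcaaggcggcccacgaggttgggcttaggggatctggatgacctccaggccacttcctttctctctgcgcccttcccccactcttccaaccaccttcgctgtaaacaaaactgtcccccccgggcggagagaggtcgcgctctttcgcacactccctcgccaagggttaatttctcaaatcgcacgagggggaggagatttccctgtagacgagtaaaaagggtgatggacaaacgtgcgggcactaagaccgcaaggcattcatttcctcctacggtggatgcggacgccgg
INSIG1: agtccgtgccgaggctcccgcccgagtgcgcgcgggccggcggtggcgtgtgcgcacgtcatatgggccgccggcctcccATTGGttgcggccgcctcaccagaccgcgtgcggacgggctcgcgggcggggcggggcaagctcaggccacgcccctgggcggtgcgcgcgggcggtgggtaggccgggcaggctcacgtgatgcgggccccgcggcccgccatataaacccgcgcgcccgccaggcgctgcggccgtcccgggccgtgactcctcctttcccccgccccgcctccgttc
FDPS: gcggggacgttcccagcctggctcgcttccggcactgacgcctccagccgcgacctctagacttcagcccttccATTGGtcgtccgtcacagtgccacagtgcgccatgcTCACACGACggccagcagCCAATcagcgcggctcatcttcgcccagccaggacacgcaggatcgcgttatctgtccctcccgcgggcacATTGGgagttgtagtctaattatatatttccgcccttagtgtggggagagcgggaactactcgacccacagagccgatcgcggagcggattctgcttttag
HSD17B7: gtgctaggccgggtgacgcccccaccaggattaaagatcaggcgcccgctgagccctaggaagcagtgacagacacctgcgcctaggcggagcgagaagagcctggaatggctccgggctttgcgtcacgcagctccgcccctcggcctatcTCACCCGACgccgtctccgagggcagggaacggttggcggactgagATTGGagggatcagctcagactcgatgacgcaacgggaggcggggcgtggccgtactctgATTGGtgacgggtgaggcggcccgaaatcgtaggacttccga
ACSS2: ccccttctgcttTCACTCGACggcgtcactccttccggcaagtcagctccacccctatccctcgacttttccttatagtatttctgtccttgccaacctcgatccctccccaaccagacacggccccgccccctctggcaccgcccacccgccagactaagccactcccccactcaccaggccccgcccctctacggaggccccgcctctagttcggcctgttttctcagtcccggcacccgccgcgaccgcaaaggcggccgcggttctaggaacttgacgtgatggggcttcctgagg
SREBF2: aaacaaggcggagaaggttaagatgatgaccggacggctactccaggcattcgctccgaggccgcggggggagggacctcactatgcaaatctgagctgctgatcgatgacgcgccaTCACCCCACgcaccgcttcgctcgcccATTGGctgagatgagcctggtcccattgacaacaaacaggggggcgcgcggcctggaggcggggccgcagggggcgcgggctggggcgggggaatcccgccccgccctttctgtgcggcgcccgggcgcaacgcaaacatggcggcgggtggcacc

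Start sites were listed for 29 of the 33 genes. TCACNCNAC lay in the window of 5 of these 29 genes (17.2%) and of 3.13% of 27305 genes, counting a gene when any of its windows held it. The narrower spelling TCACNCCAC, the classical form of the element and included in the wider one, was in SREBF2 alone among the members and in 1.39% of all genes. CCAAT was in 22 of 29 members (75.9%) against 39.7% of all genes, and GGGCGG, the core of the Sp1 box, in 27 of 29 (93.1%) against 48.3%. In the sequences above, SCD held 2 CCAAT boxes and no TCACNCNAC, FDPS held 3 and 1, and ELOVL6 held neither. These are matches of letters in a short window, not measured binding. The 27305 genes include many not expressed in these cells, while all members were expressed. Shares among expressed genes were not counted, so the differences from all genes are not a result about the list.

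Each library summed to 1000000 TPM, and 12361 to 13016 genes reached 1 TPM. Correlations of log2(TPM + 1) within a group were 0.990 to 0.993 apart from the control group, where they were 0.975 to 0.993. Between radioresistant and control cells 13127 genes were tested, of which 16.9% were called higher, 27.0% lower and 43.9% either way (limma, Benjamini-Hochberg adjusted p below 0.05). Between shIFI16 and shNC 12567 genes were tested, of which 16.6% were called higher, 16.3% lower and 32.9% either way. IFI16 itself was at 7.68, 7.90 and 6.71 TPM in the shIFI16 libraries against 125, 140 and 127 TPM with shNC, and at 250.8, 309 and 243 TPM in radioresistant against 70.3, 71.1 and 49.6 TPM in control libraries. All 6 glioma markers examined were called lower in the radioresistant libraries, where GFAP, VIM, NES, SOX2, S100B and FABP7 summed to 5840 to 6295 TPM against 13662 to 13893 TPM; S100B was under 1 TPM there and passed the filter through the control group, which sets its direction. Of 6 immune markers 3 were listed at 0 in every library, CD3E and AIF1 among them, and the list, mostly CD68, summed to 15.3 to 20.6 TPM in control and 19.4 to 23.5 TPM in radioresistant libraries. The 4 endothelial markers summed to 12.4 to 14.2 TPM and 4.66 to 5.07 TPM, and the 4 neuron markers, mostly SYT1 and with STMN2 at 0, to 17.1 to 23.5 TPM and 9.66 to 12.9 TPM. Epithelial and oligodendrocyte markers summed to at most 4.53 TPM, and the part of all these markers in the results was not tested. In such bulk samples fewer cells of a type and less RNA per cell cannot be told apart.

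In the radioresistant cells the fatty acid enzymes fell almost as a whole and most of the sterol enzymes fell too. Of the 33 genes 21 fell (63.6%, against 27.0% of all genes tested) and 2 rose (against 16.9%). Among the 9 fatty acid enzymes 8 fell and none rose (9 and 0 at an unadjusted p below 0.05), with a median log2 change of -0.97, and among the 18 sterol enzymes 11 fell and 2 rose, with a median of -0.50. The median over all genes tested was -0.11, with quartiles of -0.43 and 0.24. In 24 of the 33 genes all 3 radioresistant libraries lay below all 3 control libraries, in 2 they lay above, and in 7 the groups overlapped. The share of separate groups over all genes tested was not counted, so these counts describe the libraries and are not a result about the list.

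The largest fall was in SCD, stearoyl-CoA desaturase, which puts the first double bond into saturated fatty acids (chromosome 10, 100347233 to 100364826, GRCh38.p14). Control libraries held 744, 719 and 674 TPM of it and radioresistant ones 112, 124 and 112 TPM. Its mean went from 712 ± 35.4 to 116 ± 7.08 TPM (SD, n = 3 each), 6.14 times lower, a log2 change of -2.61 with a standard error of 0.10 (limma adjusted p = 3.1e-08). SCD was the highest of the 33 genes by TPM in control cells and ranked number 8 in radioresistant cells. FADS2, the delta-6 desaturase that starts the making of polyunsaturated fatty acids (chromosome 11, 61816203 to 61867354), was at 214, 236 and 264 TPM in control and 54.1, 48.95 and 44.8 TPM in radioresistant libraries. The groups were far apart, and FADS2 fell by 2.25 on the log2 scale (SE 0.12, limma adjusted p = 2.9e-07). FADS1, the neighbouring delta-5 desaturase (chromosome 11, 61799627 to 61817003), fell from 216, 196 and 186 TPM to 79.1, 78.3 and 78.7 TPM, by 1.33 (SE 0.10, limma adjusted p = 4.8e-06). The annotated spans of FADS1 and FADS2 share 801 bases, so reads there could count for either gene. All 3 desaturases thus lay well below their control range in each radioresistant library, with little spread among the libraries of a group.

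The elongases fell with them. ELOVL6, which extends C16 fatty acids (chromosome 4, 110045846 to 110199202), was at 193, 173 and 134 TPM in control and 50.8, 57.9 and 50.2 TPM in radioresistant libraries, a log2 change of -1.62 (SE 0.14, limma adjusted p = 1.1e-05). ELOVL5, which extends polyunsaturated fatty acids, fell by 0.83 (SE 0.098, limma adjusted p = 8.5e-05), from 559.6, 567 and 519 TPM to 307, 319 and 296 TPM. It ranked number 2 by TPM in control cells and was the highest of the 33 genes in radioresistant cells. The enzymes that build the chain itself fell too. FASN, fatty acid synthase, went from 411, 449 and 519.9 TPM to 241, 229.6 and 229.6 TPM, a log2 change of -0.97 (SE 0.11, limma adjusted p = 7.4e-05). ACACA, the acetyl-CoA carboxylase that makes malonyl-CoA, went from 73.2, 74.0 and 63.7 TPM to 46.7, 48.7 and 48.4 TPM, a log2 change of -0.54 (SE 0.11, limma adjusted p = 0.0028). The 2 suppliers of acetyl-CoA differed in their calls: ACSS2, which makes it from acetate, fell by 0.89 (28.7, 27.3 and 24.7 TPM against 14.7, 15.5 and 11.9 TPM, SE 0.14, limma adjusted p = 5.0e-04). ACLY, ATP citrate lyase, which makes it from citrate, was at 313, 310.3 and 298 TPM in control and 255, 251.4 and 273 TPM in radioresistant libraries, a log2 change of -0.24 that did not pass (limma adjusted p = 0.065; 0.036 without control replicate 3). The ACLY groups did not overlap, which by itself is not a call.

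**Figure D1:**
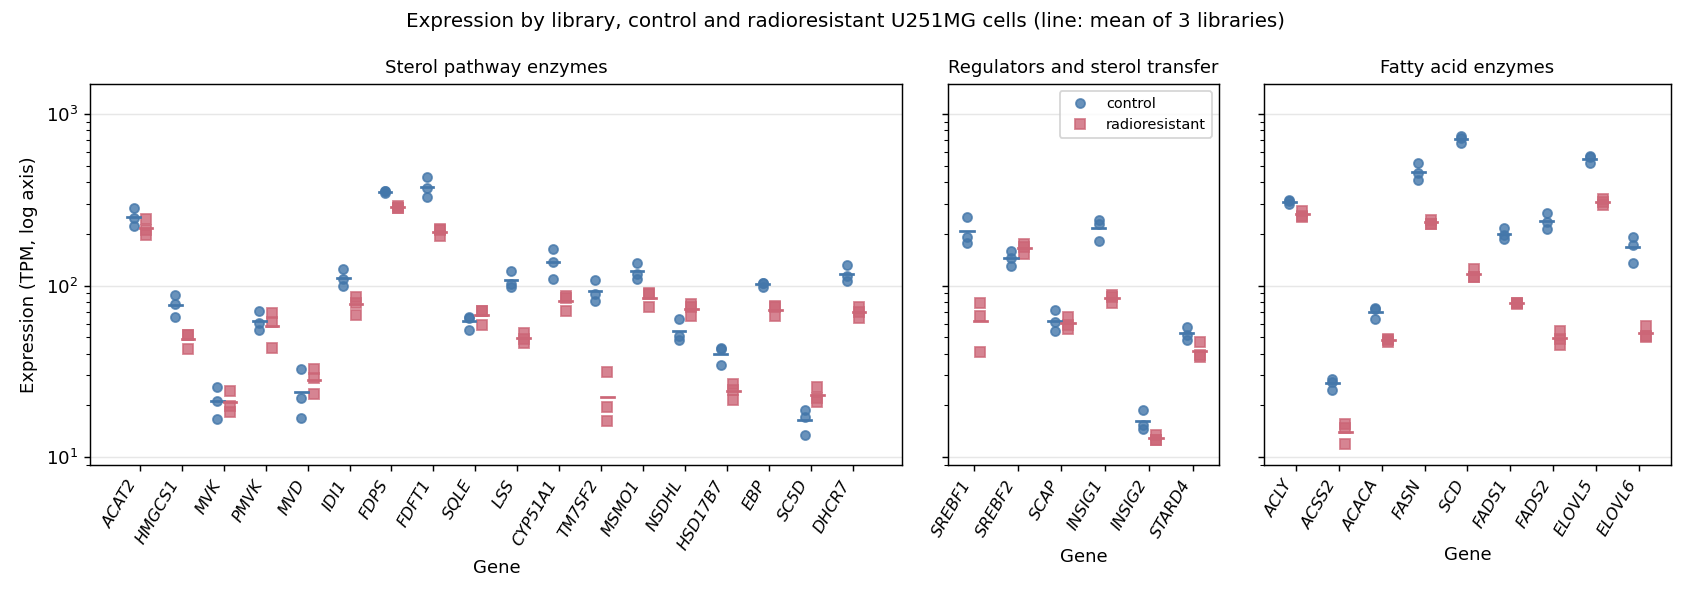
Expression in TPM (log axis) of the 33 genes in the 3 control (circles) and 3 radioresistant (squares) libraries, in 3 panels by role, with short lines at the means of 3 libraries. In the right panel every radioresistant point lies below every control point of the same gene, with SCD at 674 to 744 TPM against 112 to 124 TPM, while SREBF1 and SREBF2 in the middle panel part. The share of genes separated in this way over all genes tested was not counted.

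In the sterol pathway the early steps changed least. The 7 enzymes from acetoacetyl-CoA to farnesyl diphosphate had a median log2 change of -0.21, and 3 of them fell and none rose. HMGCS1, HMG-CoA synthase, fell by 0.65 (SE 0.14, limma adjusted p = 0.0033), from 87.5, 78.2 and 65.4 TPM to 42.4, 51.5 and 51.5 TPM. IDI1, isopentenyl diphosphate isomerase (chromosome 10, 1039152 to 1056704), fell by 0.51 (SE 0.13, limma adjusted p = 0.0085), from 124, 109 and 99.98 TPM to 67.5, 86.0 and 79.2 TPM. FDPS, farnesyl diphosphate synthase, fell by 0.30 (SE 0.094, limma adjusted p = 0.025), a call that was lost in 7 of the 14 alternatives. ACAT2, the cytosolic thiolase that makes acetoacetyl-CoA, and the kinases MVK and PMVK had overlapping groups and log2 changes of -0.21, -0.01 and -0.13 that did not pass (limma adjusted p = 0.19, 0.97 and 0.57). MVD, the decarboxylase that follows them, did not pass either, at 16.8, 22.2 and 32.5 TPM in control and 32.4, 23.2 and 28.7 TPM in radioresistant libraries. Control replicate 3 was its highest library, and without that library MVD was called higher, with a log2 change of 0.51 (limma adjusted p = 0.0097).

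The committed steps behaved unevenly. FDFT1, squalene synthase, fell by 0.86 (SE 0.12, limma adjusted p = 2.5e-04), from 429, 369 and 329 TPM to 194, 212 and 212 TPM. LSS, lanosterol synthase (chromosome 21, 46188446 to 46228774), fell by 1.102 (SE 0.12, limma adjusted p = 5.0e-05), from 98.4, 102 and 122 TPM to 52.7, 46.1 and 48.97 TPM. Between them in the pathway stands SQLE, squalene epoxidase, at 65.7, 64.8 and 55.2 TPM in control and 58.6, 71.5 and 70.8 TPM in radioresistant libraries. Its groups overlapped, and its log2 change of 0.11 did not pass (limma adjusted p = 0.5, 95% interval -0.17 to 0.39). It was the only one of the 10 members without a call that stayed without one and kept its direction in all 14 alternatives.

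After lanosterol all 8 enzymes were called, 6 lower and 2 higher, where 27.0% and 16.9% of all genes tested were. TM7SF2, a sterol C14-reductase (chromosome 11, 65111872 to 65116230), was at 81.0, 88.6 and 108 TPM in control and 31.5, 19.5 and 16.3 TPM in radioresistant libraries, the largest fall of the sterol genes, with a log2 change of -2.04 (SE 0.21, limma adjusted p = 4.7e-05). CYP51A1, the lanosterol demethylase, MSMO1, the C4-methyl oxidase, HSD17B7, a ketoreductase of the same C4 step, EBP, the sterol isomerase, and DHCR7, which makes cholesterol from 7-dehydrocholesterol, fell by 0.73, 0.50, 0.70, 0.49 and 0.73 (limma adjusted p between 6.1e-04 and 0.0076). The 2 that rose were NSDHL, the C4 decarboxylase, and SC5D, the C5-desaturase (chromosome 11, 121292771 to 121313410). NSDHL was at 48.1, 50.8 and 63.5 TPM in control and 75.3, 66.3 and 78.1 TPM in radioresistant libraries, a rise of 0.44 (SE 0.13, limma adjusted p = 0.022). SC5D was at 18.7, 17.0 and 13.5 TPM and 21.1, 25.8 and 22.2 TPM, a rise of 0.47 (SE 0.15, limma adjusted p = 0.026). Both rises were smaller than most of the falls and lost their calls when single libraries were left out: NSDHL without control replicate 1 or 2 or radioresistant replicate 1 or 3, and SC5D without control replicate 2 or radioresistant replicate 2 or 3.

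The regulators split between the 2 SREBP genes. SREBF1 (chromosome 17, 17811334 to 17836986) was at 178, 193 and 252 TPM in control and 79.3, 66.6 and 41.0 TPM in radioresistant libraries, a log2 change of -1.75 (SE 0.23, limma adjusted p = 3.5e-04, 95% interval -2.28 to -1.23). SREBF2 (chromosome 22, 41833105 to 41907305) was at 130.3, 145 and 158 TPM and 174, 167 and 153 TPM, with overlapping groups and a log2 change of 0.19 that did not pass (limma adjusted p = 0.19, 95% interval -0.06 to 0.44). Without control replicate 3 SREBF2 just passed as a rise of 0.26 (limma adjusted p = 0.0498). The ratio of SREBF1 to SREBF2 TPM within a library was 1.36, 1.33 and 1.60 in control and 0.455, 0.398 and 0.268 in radioresistant libraries, so SREBF1 was the higher in every control library and the lower in every radioresistant one. The difference of the log2 ratio was -1.97, with an exact two-sided permutation p = 0.1, the smallest that 3 against 3 libraries allow. Gene totals do not separate the SREBP1a and SREBP1c transcripts, and a transcript level does not show how much SREBP protein is cleaved.

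INSIG1, which retains SCAP and is itself an SREBP target (chromosome 7, 155297878 to 155310235), fell from 241, 228 and 182 TPM to 78.9, 87.5 and 86.1 TPM, by 1.35 (SE 0.13, limma adjusted p = 1.7e-05). Its relative INSIG2 was far lower, at 18.7, 15.4 and 14.6 TPM in control and 12.5, 13.5 and 12.5 TPM in radioresistant libraries, and did not pass (log2 change -0.31, limma adjusted p = 0.084). SCAP was at 54.3, 60.9 and 72.0 TPM and 65.7, 58.9 and 55.9 TPM, with overlapping groups and a log2 change of -0.05 (limma adjusted p = 0.8, 95% interval -0.33 to 0.24). STARD4, a carrier that moves cholesterol between membranes, had a log2 change of -0.34 at the edge of the threshold (limma adjusted p = 0.051). Without control replicate 3 INSIG2 and STARD4 were called lower (limma adjusted p = 0.025 and 0.010).

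Summed TPM gave the same order of the classes. The 9 fatty acid enzymes summed to 2752, 2752 and 2684 TPM in control and 1161, 1174 and 1144 TPM in radioresistant libraries, and the 18 sterol enzymes to 2233, 2085 and 2049 TPM against 1452, 1497 and 1578 TPM. SCD made up much of the first difference, but the fatty acid sum without SCD still went from 2017 ± 13.7 to 1043 ± 10.1 TPM (SD, n = 3 each). The fatty acid enzymes together stood above the sterol enzymes in every control library and below them in every radioresistant library. TPM is relative to the whole library, and median-ratio scaling moved the median change of all genes from -0.11 to 0.01 and the share of calls that rose from 38.5% to 50.4%. Under that scaling 20 of the 33 genes fell and 2 rose, and the class medians were -0.84 for fatty acid and -0.37 for sterol enzymes. Without control replicate 3, 25 genes fell and 4 rose.

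**Figure D2:**
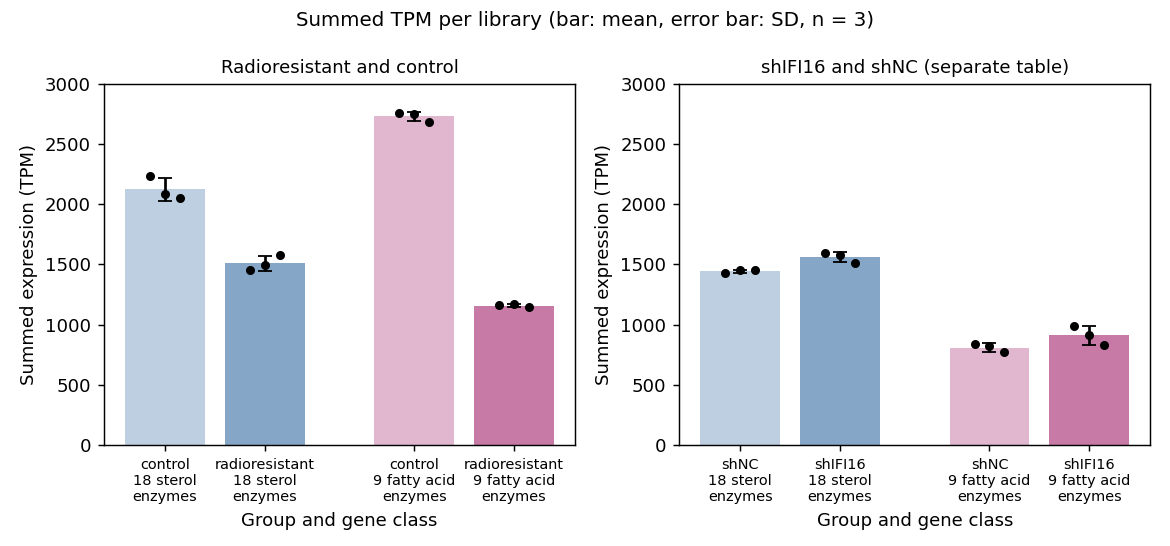
Summed TPM of the 18 sterol enzymes and the 9 fatty acid enzymes in each library of the 4 groups (points), with bars at the mean and error bars of 1 SD (n = 3), 1 panel per expression table. The fatty acid sum is 2729 ± 39.4 TPM in control and 1159 ± 15.3 TPM in radioresistant cells, and the sterol sum 2122 ± 97.7 and 1509 ± 64.0 TPM; the tables were normalized separately.

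Open chromatin at the start sites could be described but not tested, since each condition had 1 ATAC-seq library and the authors' summit lists held 2454 entries in control and 12877 in radioresistant cells. In the control library 3 of the 29 genes with a listed start had a summit within 1000 bases of it (10.3%): HMGCS1, HSD17B7 and STARD4. Among 9791 genes with a start that were tested for expression the share was 6.99%. In the radioresistant library 19 of the 29 did (65.5%), against 38.1% of those expressed genes. The higher count in radioresistant cells cannot be told apart from the longer list. The highest score, the authors' -log10 q-value, was 15.004 at STARD4, with the summit 161 bases upstream of the start. Next came MVK (10.9), NSDHL (8.52), IDI1 (8.27) and SC5D (7.36). Their summits lay 317 and 79 bases upstream, 88 downstream and 94 upstream. Lower scores included 6.53 at SREBF2 and 6.14 at FDPS, with summits 154 and 82 bases upstream.

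The expression changes can be set beside these summits. Of the 19 genes with a summit there 10 fell and 2 rose, with a median log2 change of -0.34. Over all 3731 tested genes with such a summit 27.2% fell and 13.5% rose, with a median of -0.13. The 10 genes without one were ACSS2, DHCR7, EBP, ELOVL6, FADS1, LSS, SCAP, SCD, SREBF1 and TM7SF2, of which 9 fell, with a median of -1.21, against 27.1% and a median of -0.09 over all 6060 tested genes without a summit. SREBF1 thus had no summit in either library, and SREBF2 had one in the radioresistant library only. FADS2 and INSIG1, both with large falls, had radioresistant summits 704 and 734 bases upstream, outside the windows printed above. This split was made after the values were seen and carries no test.

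With IFI16 knocked down in the radioresistant cells, part of the set rose, by smaller amounts. Of the 33 genes 12 rose (36.4%, against 16.6% of all genes tested) and 1 fell (against 16.3%). Among the sterol enzymes 8 of 18 rose and none fell, with a median log2 change of 0.20, and 1 of them, PMVK, fell at an unadjusted p below 0.05. Among the fatty acid enzymes 3 of 9 rose and 1 fell, with a median of 0.17. The median over all genes tested was 0.02, with quartiles of -0.16 and 0.19. In 13 genes all shIFI16 libraries lay above all shNC libraries, in 4 below, and in 16 the groups overlapped. Here too the share over all genes tested was not counted, so these counts are not a result about the list.

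SQLE, the oxygenase that turns squalene into its epoxide, rose most. It was at 54.1, 51.0 and 49.8 TPM with shNC and 96.9, 100.3 and 88.9 TPM with shIFI16, means of 51.6 ± 2.21 and 95.4 ± 5.84 TPM (SD, n = 3 each). This was 1.85 times higher, a log2 change of 0.87 (SE 0.073, limma adjusted p = 2.3e-07), in a gene that had not passed between radioresistant and control cells. Its neighbours in the pathway did not pass: FDFT1 had a log2 change of 0.04 and LSS of -0.09 (limma adjusted p = 0.6 and 0.47). In the mevalonate part IDI1 rose by 0.34 (SE 0.071, limma adjusted p = 0.0017), from 61.4, 68.7 and 64.4 TPM to 85.5, 79.8 and 81.4 TPM. HMGCS1 rose by 0.27 and ACAT2 by 0.19 (limma adjusted p = 0.034 and 0.039), and each call was lost in 7 of the 14 alternatives. MVK, PMVK, MVD and FDPS did not pass, with log2 changes of 0.05, -0.13, -0.15 and -0.09.

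After lanosterol 4 of 8 enzymes rose. SC5D was at 11.9, 12.2 and 11.1 TPM with shNC and 17.5, 15.8 and 15.2 TPM with shIFI16, a rise of 0.43 (SE 0.099, limma adjusted p = 0.0037). MSMO1 was at 82.8, 68.9 and 78.4 TPM and 110.2, 94.7 and 89.4 TPM, a rise of 0.35 (SE 0.088, limma adjusted p = 0.0067). TM7SF2 rose by 0.33 and DHCR7 by 0.24 (limma adjusted p = 0.0105 and 0.025). The groups of all 4 were separate, but TM7SF2 lost its call without shNC replicate 1 or shIFI16 replicate 2, and DHCR7 in 6 of the 14 alternatives. CYP51A1 and HSD17B7 also had separate groups, with log2 changes of 0.24 and 0.22 that did not pass (limma adjusted p = 0.069 and 0.0703). They were called higher in 3 and 2 of the 14 alternatives. NSDHL and EBP, at 0.01 and 0.04, did not pass either.

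Among the fatty acid enzymes ELOVL6 rose most, from 67.3, 68.3 and 65.6 TPM with shNC to 108, 101 and 91.6 TPM with shIFI16, by 0.57 (SE 0.073, limma adjusted p = 2.2e-05). ACACA rose by 0.36 (24.5, 24.97 and 20.1 TPM against 33.8, 29.4 and 26.8 TPM, SE 0.11, limma adjusted p = 0.017), a call lost without shNC replicate 3 and with no filter on low values. FASN rose by 0.28 (74.9, 64.9 and 61.1 TPM against 89.2, 84.3 and 71.7 TPM, SE 0.093, limma adjusted p = 0.0299), but its groups overlapped and the call was lost in 6 of the 14 alternatives. The desaturases SCD, FADS1 and FADS2, all of which had fallen in radioresistant cells, did not pass. SCD was at 111, 109 and 98.0 TPM with shNC and 133, 122 and 107 TPM with shIFI16, a log2 change of 0.18 (SE 0.080, limma adjusted p = 0.094, 95% interval 0.01 to 0.35). SCD was called higher in 2 of the 14 alternatives. FADS1 and FADS2 had changes of 0.02 (95% interval -0.15 to 0.18) and 0.04 (95% interval -0.11 to 0.20). Those intervals lie far below the sizes of the falls of these genes between control and radioresistant cells. The 2 comparisons have different reference cells, however, and the difference between them was not tested. ELOVL5 at 0.09 and ACLY at 0.17 did not pass, though ACLY was called higher in 2 of the 14 alternatives.

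ACSS2 was the member that fell with shIFI16, from 21.0, 23.6 and 22.6 TPM to 15.2, 17.1 and 16.3 TPM, by 0.44 (SE 0.094, limma adjusted p = 0.0018). It lies on chromosome 20, 34874989 to 34927959, and its call held in all 14 alternatives. Of the regulators INSIG1 rose, from 41.4, 40.1 and 39.7 TPM to 59.4, 59.9 and 52.7 TPM, by 0.49 (SE 0.078, limma adjusted p = 1.6e-04). SREBF1 was at 16.5, 16.4 and 15.9 TPM with shNC and 19.2, 17.2 and 15.4 TPM with shIFI16, with overlapping groups and a log2 change of 0.08 (limma adjusted p = 0.6, 95% interval -0.14 to 0.29). SREBF2 was at 64.1, 58.2 and 56.1 TPM and 71.1, 67.3 and 59.2 TPM, a log2 change of 0.14 (limma adjusted p = 0.2, 95% interval -0.03 to 0.32). SREBF2 was called higher in 1 of the 14 alternatives. The ratio of SREBF1 to SREBF2 was 0.258, 0.281 and 0.284 with shNC and 0.270, 0.256 and 0.260 with shIFI16, below 1 in every library (exact two-sided permutation p = 0.3). SCAP (40.4, 28.8 and 35.8 TPM against 47.4, 38.5 and 32.7 TPM) and INSIG2 (11.4, 13.2 and 12.3 TPM against 14.4, 13.01 and 14.5 TPM) had overlapping groups. Their log2 changes were both 0.17 and did not pass (limma adjusted p = 0.44 and 0.22). STARD4 had a log2 change of -0.22 that did not pass (limma adjusted p = 0.092), though it was called lower in 4 of the 14 alternatives.

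**Figure D3:**
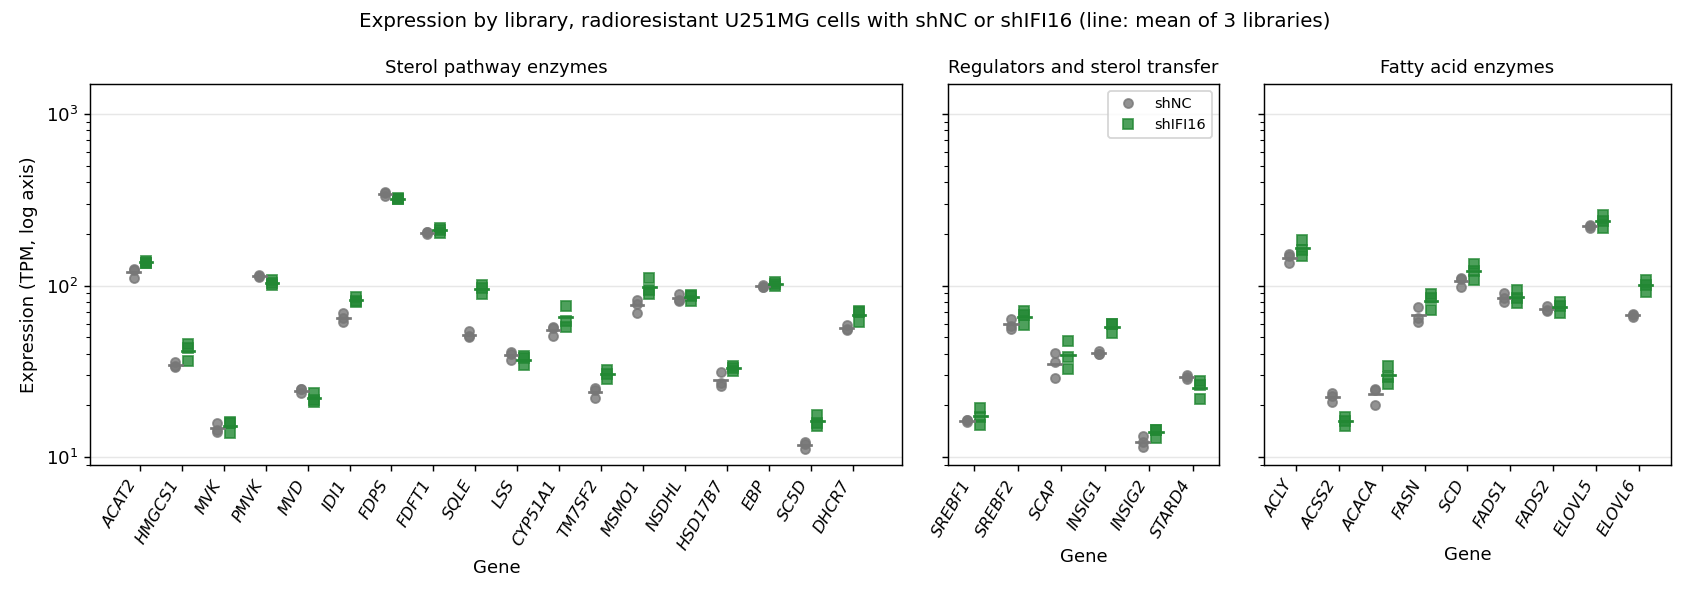
Expression in TPM (log axis) of the 33 genes in the 3 shNC (circles) and 3 shIFI16 (squares) libraries of radioresistant cells, in 3 panels by role, with short lines at the means of 3 libraries. SQLE, INSIG1 and ELOVL6 stand clearly higher with shIFI16, ACSS2 stands lower, and the points of FADS1, FADS2 and SREBF1 overlap.

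The sterol enzymes summed to 1429, 1450.2 and 1453 TPM with shNC and to 1591, 1575 and 1515 TPM with shIFI16, so that the groups were separate. The fatty acid enzymes summed to 840.0, 821 and 771 TPM against 993, 912 and 829 TPM, and the lowest shIFI16 library lay inside the shNC range. Counts of calls moved with single libraries and with the filter: without shIFI16 replicate 2, 7 of the 33 genes rose, and with no filter on low values 7 rose. With the replicate number as a block more of the 33 genes rose than in the main fit. Sterol enzymes that rose numbered 5 without shNC replicate 1, 5 without shIFI16 replicate 1 and 4 without shIFI16 replicate 2, and fatty acid enzymes that rose numbered 1 without shNC replicate 3 and 5 without shIFI16 replicate 3. IDI1, SQLE, MSMO1, SC5D, INSIG1, ACSS2 and ELOVL6 kept their calls in all 14 alternatives. Markers also moved with the hairpin, in both directions. Of 5 glioma markers tested 3 rose and 2 fell: GFAP went from 1.75, 2.06 and 1.37 TPM to 33.03, 30.2 and 30.1 TPM, and SOX2 and FABP7 also rose, while VIM and NES fell. VIM made up most of their sum, 6757 to 7386 TPM with shNC and 4920 to 5733 TPM with shIFI16. The endothelial markers summed to 6.02 to 6.64 TPM and 11.7 to 14.2 TPM, and the neuron markers to 19.1 to 21.1 TPM and 12.1 to 12.98 TPM. The immune markers, nearly all of them CD68, summed to 37.4 to 40.3 TPM and 14.0 to 17.7 TPM. Their part in these results was not tested.

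The 2 comparisons share no library, and 9 genes fell in radioresistant cells and rose with shIFI16: HMGCS1, IDI1, TM7SF2, MSMO1, DHCR7, INSIG1, ACACA, FASN and ELOVL6. They were 42.9% of the 21 members that fell and 75% of the 12 that rose. Over the 12359 genes tested in both comparisons the same pattern held for 595 genes, 18.2% of those that fell and 28.9% of those that rose. Of all 33 members 63.6% fell and 36.4% rose. With no link between the comparisons, 36.4% of the members that fell would rise, and 63.6% of those that rose would have fallen. The member shares of 42.9% and 75% lie near these, so their excess over all genes is not a result about the list. The rises were smaller than the falls in these 9 genes; ELOVL6 fell by 1.62 and rose by 0.57, and INSIG1 fell by 1.35 and rose by 0.49. A further 11 genes fell in radioresistant cells and did not pass with shIFI16: FDPS, FDFT1, LSS, CYP51A1, HSD17B7, EBP, SREBF1, SCD, FADS1, FADS2 and ELOVL5. SC5D rose in both comparisons and ACSS2 fell in both. NSDHL rose in radioresistant cells alone, ACAT2 and SQLE rose with shIFI16 alone, and MVK, PMVK, MVD, SREBF2, SCAP, INSIG2, STARD4 and ACLY passed in neither. The difference between the comparisons was not tested. Each was fitted inside its own table, against other reference cells (control or shNC), and levels were not compared across the tables.

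**Figure D4:**
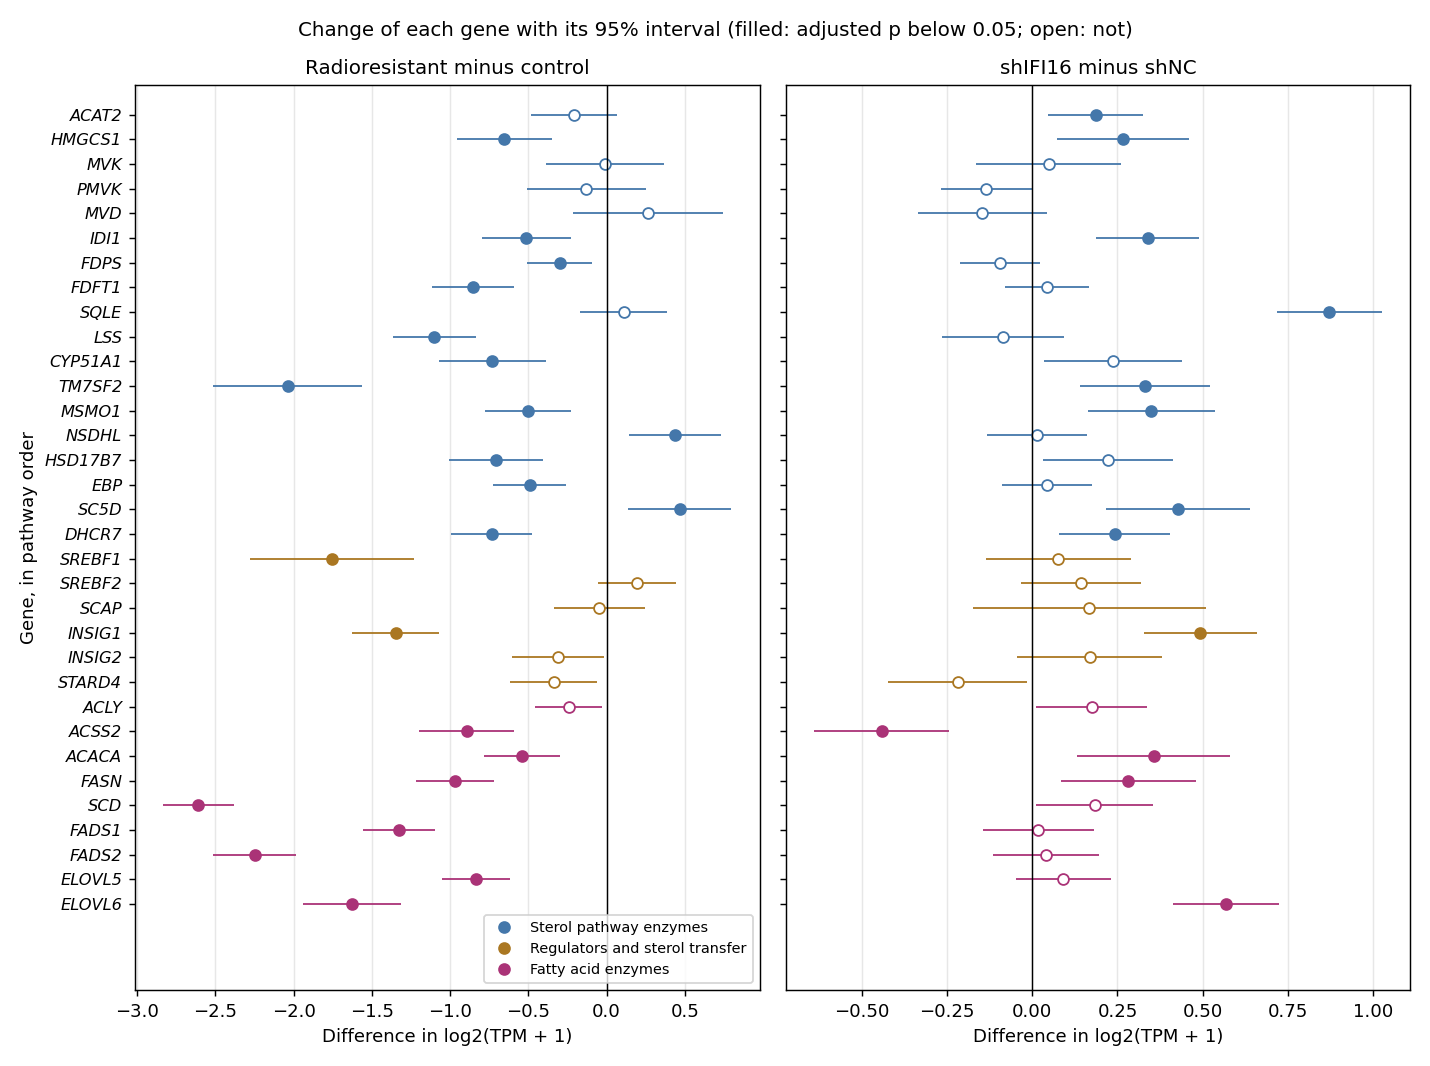
Log2 change of each of the 33 genes in pathway order, radioresistant minus control (left) and shIFI16 minus shNC (right), with bars for the 95% interval, filled where the limma adjusted p was below 0.05 and open elsewhere; colours give the role, and the horizontal scales of the panels differ. Most filled points lie left of 0 in the left panel, down to -2.61 for SCD, and right of 0 in the right panel, up to 0.87 for SQLE.

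Genes next to these pathways gave a mixed picture in radioresistant cells, where 27.0% of all genes tested fell and 16.9% rose, so that shares near those are not results about a list. Of 10 genes that process or degrade SREBP pathway proteins 6 fell and 1 rose, with RNF145, a ubiquitin ligase, at -0.77 (limma adjusted p = 9.5e-04). A list of liver X receptors and their targets in lipid efflux and remodelling had 7 tested genes. Of these 2 fell, among them LPCAT3 at -0.87, and MYLIP, which degrades lipoprotein receptors, rose by 0.53 (limma adjusted p = 7.6e-04 and 0.0077). Of 12 genes of sterol uptake and transport 3 rose and 2 fell, with VLDLR, a lipoprotein receptor, at 79.6, 78.5 and 65.5 TPM in control and 37.6, 38.6 and 26.8 TPM in radioresistant libraries (log2 change -1.11, limma adjusted p = 2.7e-04). Of 13 genes of the isoprenoid branch 2 rose and 1 fell.

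Of 18 other fatty acid genes tested, 7 rose and 5 fell, the latter a share near that of all genes, with a median of -0.05. SCD5, the second human stearoyl-CoA desaturase, fell by 0.94 as SCD did (99.7, 111 and 95.7 TPM against 48.1, 56.9 and 53.9 TPM, limma adjusted p = 1.1e-04), and ACSL3, an acyl-CoA synthetase, fell by 1.09 (limma adjusted p = 1.3e-04). ACSL5, another acyl-CoA synthetase, went from 0.361, 0.274 and 0.180 TPM to 8.01, 8.09 and 4.36 TPM. Being under 1 TPM in every control library, it could pass the filter only through the radioresistant group, which sets its direction. The same holds for DGAT2, which makes triglyceride, at 0.653, 0.430 and 0.606 TPM and 4.43, 4.51 and 3.92 TPM. Of 12 tested glycerolipid genes 4 fell and 2 rose, and of 16 genes of fatty acid oxidation 6 fell and 1 rose, with CPT1C, a brain carnitine palmitoyltransferase relative, at -1.60 (limma adjusted p = 4.2e-05).

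With shIFI16, where 16.3% of all genes tested fell and 16.6% rose, the neighbouring lists again went both ways. Among the 12 uptake and transport genes 5 fell and 3 rose. NCEH1, a cholesteryl ester hydrolase, changed most among them, from 109.7, 116 and 103 TPM to 19.1, 18.1 and 16.4 TPM, a log2 change of -2.55 (limma adjusted p = 3.6e-12). VLDLR rose from 14.4, 15.1 and 14.3 TPM to 29.6, 26.8 and 26.8 TPM, by 0.88, and SCARB1, the HDL receptor, by 0.61 (limma adjusted p = 2.3e-06 and 8.6e-06). Of 18 other fatty acid genes 4 rose and 4 fell, with SCD5 up by 0.55 and ACSL5 at -1.14 (limma adjusted p = 1.2e-04 and 1.0e-05). Of 12 glycerolipid genes 4 fell, with DGAT2 at -1.50 and DGAT1 at -0.57 (limma adjusted p = 7.6e-08 and 7.4e-04). The SREBP processing list had 1 fall in 10, RNF145 at -0.41, the efflux list 2 rises and 1 fall in 7, the isoprenoid list 2 rises and 4 falls in 13, and the oxidation list 2 rises and 3 falls in 16.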

How the data were processed

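RNA-seq of 12 libraries and ATAC-seq of 2 libraries were used, grouped by the labels. The build was hg38, and the tools TopHat, featureCounts, Cufflinks 2.2.1 and Trim Galore 0.6.6 were used, with MACS2 2.1.4, Bowtie2 2.2.5 and SAMtools 1.10 for ATAC-seq, per the submitters' processing notes; strand use and annotation were not given in the sources used here. The authors deposited RNA values in TPM, in files named as counts; each column sums to 1000000, so depth is unknown. The deposited ATAC summits carry a -log10 q-value. Column codes UN and UR were read as control and radioresistant from the names of the ATAC-seq files. Of the other codes, N of URN was read as shNC and URS as the remaining group, shIFI16. Low IFI16 went with the second reading, and the first has no such check.

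Within each table, genes that reached 1 TPM in 3 or more of 6 libraries were tested by limma 3.58.1 (R 4.3.3) on log2(TPM + 1), with trended, robust variances and Benjamini-Hochberg adjustment over all genes tested (threshold 0.05). Fold changes on this scale understate changes of low genes. The planned count test was replaced because no counts were given, and 28 entries named as dates were left out (0.115 to 0.190% of a library). The model was tested on simulated data. The 14 alternatives were pseudocounts of 0.1 and 5 TPM, no filter, a filter on a mean of 5 TPM, median-ratio and quantile scaling, the replicate number as a block, variances without trend or robustness, and leaving out each of the 6 libraries. All 33 members are named; those with the 5 smallest p-values in each comparison, those called in both, and SREBF1, SREBF2, SCAP, INSIG1 and INSIG2 are given in full, with up to 3 genes per neighbouring list. Members and lists were chosen with earlier results of these data known. Of the members, 20 overlap another annotated gene (ACAT2 and TCP1, SREBF1 and RAI1, MVK and MMAB, for example) and 5 (IDI1, FDPS, CYP51A1, HSD17B7 and SCD) have numbered pseudogenes, so their values are uncertain by unassigned or shared reads. Positions and upstream sequences are from RefSeq on GRCh38.p14. Some genes of these pathways are not reported here.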

Additional observations from a re-analysis of the deposited data

How the results depend on the processing

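Of the 23 calls between radioresistant and control cells 20 kept direction and threshold in all 14 alternatives, the exceptions being FDPS, NSDHL and SC5D; of the 13 with shIFI16, 7 did. With median-ratio scaling the medians between radioresistant and control cells were -0.37 for sterol and -0.84 for fatty acid enzymes, and genes called were 2976 higher and 2926 lower against 2220 and 3542. Leaving out 1 library at a time gave, between radioresistant and control cells, 1494 to 2743 genes called higher and 2237 to 4395 lower (2237 without control replicate 2), 0 to 4 members that rose and 20 to 25 that fell, 0 to 3 sterol enzymes that rose, and sterol medians of -0.53 to -0.42. With shIFI16 it gave 1318 to 2310 genes called higher (1318 without shIFI16 replicate 2), 7 to 16 members that rose, 1 to 2 that fell, 4 to 9 sterol and 1 to 5 fatty acid enzymes that rose. With shIFI16 and no filter on low values 7 members, 5 sterol and 1 fatty acid enzymes rose, and without trended and robust variances 5 sterol enzymes rose. Median-ratio scaling and quantile normalization gave 2 members that fell (ACSS2 and STARD4). The replicate numbers were not taken to pair the libraries. Same-numbered libraries had correlated deviations of -0.38, 0.24 and 0.08 in the first comparison. In the second these were 0.22, 0.09 and 0.03, all positive, against -0.23 to 0.15 for different numbers. Whether the libraries of the second were paired is not known, and an unpaired fit could miss calls if they were. With the replicate number as a block, 20 members fell and 2 rose in the first, where FDPS lost its call (adjusted p = 0.058); in the second 16 rose and 2 fell, with 5 fatty acid enzymes up, and genes called were 3001 higher and 2609 lower against 2088 and 2052. Signs turned only in genes that were not called. Between radioresistant and control cells these were MVK (0.11 with median-ratio scaling, 0.084 with quantile normalization, -0.16 to 0.13 without single libraries), SCAP (0.078, 0.0065 and -0.14 to 0.060) and PMVK (-0.27 to 0.064 without single libraries). With shIFI16 they were NSDHL (-0.0080 with median-ratio scaling, -0.011 to 0.057 without single libraries), FADS1 (-0.0032 and -0.050 to 0.073) and FADS2 (-0.0023 to 0.096 without single libraries). ATAC summits at member starts numbered 13 in the radioresistant library within 250 bases, 2 with a score of at least 10, and 0 in the control library at that score. The causes were not tested. TPM keeps no depth, so no counting error could be given, and single ATAC-seq libraries allow no replicate check.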
